A study of Mus musculus with 8 samples.

Results

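Transcripts of 9 chemokines and cytokines that connective tissue cells secrete, Ccl2, Ccl7, Cxcl1, Cxcl5, Cxcl12, Cx3cl1, Il6, Lif and Csf1, were followed in mouse striatal cells with and without added Bcl11b. All probes whose symbol in the deposited table is one of these names were taken, which gave 15 probes for the 9 genes, of 25697 probes carrying 18120 gene symbols in all. Ccl2, Ccl7, Cxcl1, Cxcl5, Cx3cl1, Il6 and Csf1 had 1 probe each, Lif had 3 and Cxcl12 had 5.

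The cells are STHdh cells, a conditionally immortalized line of neuronal progenitors from embryonic mouse striatum with a wild-type genotype. In 1 group of 4 arrays the cells had received a pcDNA3.1 expression plasmid with the cDNA of mouse Bcl11b, a zinc finger transcription factor, and in the other group of 4 the empty pcDNA3.1 plasmid (mock-transfected cells, which the labels call wild-type). Both groups were kept in the same serum-containing medium with the selection drug G418 and harvested 2 days after transfection. Transfection was transient, each RNA came from all cells of a set whether or not they had taken up plasmid, and all cells were of 1 line. The 4 arrays of a group stand for separately transfected sets of cells of this line, so p-values measure the spread between such sets.

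Chemokines are small secreted proteins that guide migrating cells through receptors coupled to G proteins, and they are named for the spacing of their first cysteines (the CC, CXC and CX3C classes). Ccl2, Ccl7, Cxcl1, Cxcl5 and Il6 are classic inflammatory products of stimulated fibroblasts, made when NF-kappaB and AP-1 factors act on their promoters. Cxcl12 and Csf1 are made more steadily by stromal cells, Cxcl12 as a signal for cells that carry Cxcr4 and Csf1 as the growth factor of macrophages and microglia. Cx3cl1 is made as a membrane-bound protein, in the brain chiefly by neurons, and is shed by proteases, while Il6 and Lif signal through receptors that share the Il6st (gp130) subunit.

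The promoters of Cxcl12 and Csf1, the detected members called lower in the results, and of 2 inflammatory members are shown, to set a stromal promoter beside an inducible one. RefSeq promoters (GRCm38.p6) were matched for 6 of the 9 genes, and the 250 bases before the transcription start are given, with matches in capitals to 4 motifs searched on both strands, the NF-kappaB consensus, the AP-1 motif (TGANTCA), the TATA box (TATAAA) and the GC box (GGGCGG). The windows are chr6:117168285-117168534 (plus strand) for Cxcl12, chr3:107760470-107760719 (minus strand) for Csf1, chr5:90890995-90891244 (plus strand) for Cxcl1 and chr5:30012864-30013113 (plus strand) for Il6.
Cxcl12: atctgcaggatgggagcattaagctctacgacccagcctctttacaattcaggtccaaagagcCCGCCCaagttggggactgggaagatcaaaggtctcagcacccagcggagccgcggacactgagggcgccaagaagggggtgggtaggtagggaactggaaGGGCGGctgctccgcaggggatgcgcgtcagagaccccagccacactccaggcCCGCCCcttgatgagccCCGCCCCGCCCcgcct
Csf1: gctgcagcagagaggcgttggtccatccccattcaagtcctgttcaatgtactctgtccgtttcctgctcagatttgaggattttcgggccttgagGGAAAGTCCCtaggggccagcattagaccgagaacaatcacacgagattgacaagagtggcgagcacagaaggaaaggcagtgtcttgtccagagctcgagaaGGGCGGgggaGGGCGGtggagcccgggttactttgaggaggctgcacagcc
Cxcl1: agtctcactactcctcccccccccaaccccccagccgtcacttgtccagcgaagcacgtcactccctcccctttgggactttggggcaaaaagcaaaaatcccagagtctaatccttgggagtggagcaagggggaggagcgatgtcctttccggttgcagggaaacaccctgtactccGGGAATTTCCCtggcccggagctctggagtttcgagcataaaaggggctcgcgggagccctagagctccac
Il6: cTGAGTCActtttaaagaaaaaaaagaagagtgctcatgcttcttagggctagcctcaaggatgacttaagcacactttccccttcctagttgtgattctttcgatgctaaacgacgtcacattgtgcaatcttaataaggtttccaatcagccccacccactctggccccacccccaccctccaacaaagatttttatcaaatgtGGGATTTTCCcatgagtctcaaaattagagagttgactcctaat
The Cxcl12 window held 5 GC boxes, 2 of them overlapping, and no match to the other motifs. The Csf1 window held 2 GC boxes and 1 match to the NF-kappaB consensus. The Cxcl1 window held 2 NF-kappaB matches, on opposite strands and overlapping, and the Il6 window held 1 NF-kappaB match and 1 AP-1 motif. Of 32851 promoter windows of the same length, 7.25% held the NF-kappaB consensus, 6.75% the AP-1 motif, 12.4% the TATA box and 32.7% the GC box. Of the remaining matched genes, Cx3cl1 held 1 TATA box and 1 GC box, and Lif held 1 AP-1 motif and 1 stretch that fits the NF-kappaB consensus on both strands. A match describes letters in the window and not binding.

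Each array gave 1 average bead signal per probe after background subtraction, with a detection p-value that sets the probe against negative control beads. A probe is called detected on an array where this p-value is under 0.01. Mock arrays were brighter before normalization, with median signals of 31.6 to 53.9 against 20.1 to 30.2 for Bcl11b arrays, while 10121 to 10784 and 10342 to 10644 probes were detected. Signals were quantile-normalized and are given on the log2 scale. With 4 arrays a group, their number limits the precision. The probe for Bcl11b itself was detected on no array and its groups overlapped, so the level of the transfected gene could not be checked on the arrays. The paper's own array results list Bcl11b as lower in the transfected cells. The paper states that Bcl11b mRNA was measured by qPCR in duplicate sets of transfected cells. In the marker lists, 10 of 13 fibroblast markers were detected, as were 1 of 11 neuron markers (Mtap2), 2 of 7 astrocyte markers (Gja1 and Slc1a3), 1 of 11 microglia and macrophage markers (Cd68) and 0 of 7 endothelial markers. The striatal neuron markers Ppp1r1b, Drd1a, Drd2 and Adora2a were detected on no array, nor were the fibroblast markers Col1a2, Thy1 and Lum. The paper reports Ppp1r1b mRNA in these cells by PCR, so an undetected probe does not show that the transcript was absent. It also states that most genes of its own striatal-enriched list gave Present calls on the arrays. That list differs from the one used here, and the limit for those calls is not given. The summed signal of the fibroblast markers overlapped between groups, from 38060 to 46481 on mock and from 35105 to 45007 on Bcl11b arrays, as did the neuron sum (936 to 1234 and 1081 to 1370), the astrocyte sum (11920 to 14785 and 12618 to 14211) and the microglia and macrophage sum (93.2 to 146 and 101 to 191). The endothelial sum was higher on Bcl11b arrays (98.4 to 117) than on mock arrays (31.6 to 53.2), with every marker in it undetected. The sums add unlogged signals after quantile normalization, so the brightest markers weigh most. Mean log2 signals on mock arrays were 14.48 for Vim, 9.90 for Mtap2 and 13.67 for Gja1. Any part of these cell types in the results was not tested.

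Of the 15 probes, 8 were detected, for Ccl2, Ccl7, Cxcl1, Cx3cl1, Csf1 and 3 of the Cxcl12 probes. Ccl2 was detected on all mock arrays and on 3 of 4 Bcl11b arrays, and the other 7 on all 8 arrays. No probe for Cxcl5, Il6 or Lif was detected on any array. Probes were called where limma gave an adjusted p-value under 0.10 (Benjamini-Hochberg, all 25697 probes), and 0.981% of all probes were, 0.627% lower and 0.354% higher in Bcl11b-transfected cells, or 161 and 91 probes. With division of each array by its median in place of quantile normalization the split was 46 lower and 100 higher. Of the 15 probes, 3 were called, those for Csf1 and Cxcl12 (ILMN_2658908) lower and the undetected Il6 probe higher. By a second rule, an unadjusted p-value under 0.05 with a change of at least 25% of the lower value, 9.02% of all probes were called, 5.81% lower and 3.2% higher, and 4 of the 15, with Cx3cl1 lower in addition. All probes include many that were detected on no array. Of the 10622 probes detected on at least 4 arrays, fitted alone, 1157 were lower and 579 higher by this rule. Of the 8 detected members among them, 3 were lower and 0 higher. Over the 7 probes detected on all arrays the median log2 fold change was -0.58, and over the 9360 probes of the whole array so detected it was -0.026, given as a description. In bulk RNA, fewer cells making a transcript and less of it per cell cannot be told apart.

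**Figure D1:**
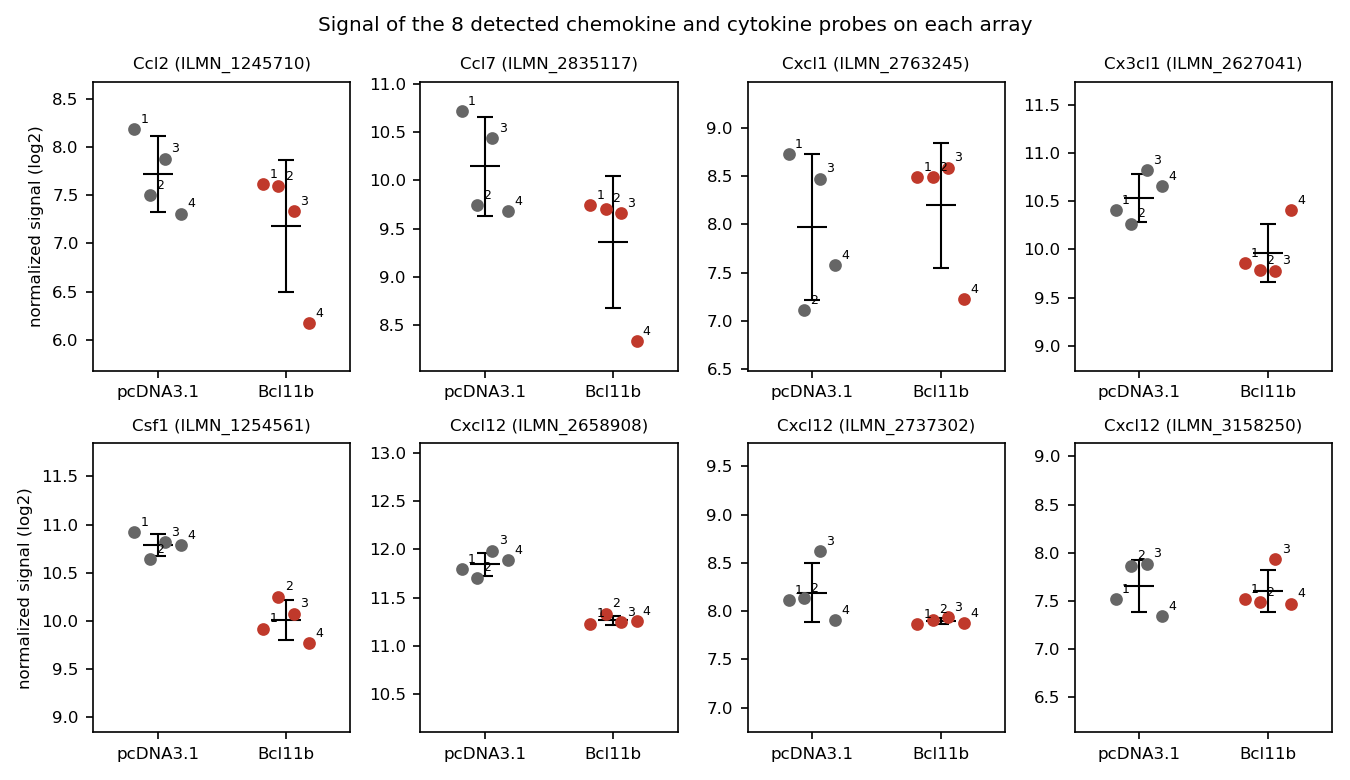
Quantile-normalized signal (log2, vertical axis, each panel spanning the same range) of the 8 detected probes on each array, grey for mock (pcDNA3.1) and red for Bcl11b, with replicate numbers beside the points and bars for the mean ± SD of 4 arrays. The groups are apart for Csf1 and for Cxcl12 (ILMN_2658908), and Bcl11b replicate 4 lies lowest for Ccl2, Ccl7 and Csf1 and highest of its group for Cx3cl1.

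Csf1, the macrophage growth factor, fell in Bcl11b-transfected cells by 42.0%, or 1.72-fold. Its log2 signals (ILMN_1254561) were 10.92, 10.64, 10.81 and 10.79 on mock replicates 1 to 4 and 9.92, 10.25, 10.08 and 9.77 on Bcl11b replicates 1 to 4. Every Bcl11b array was below every mock array, a separation in this direction that 3.78% of all probes and 7.38% of the probes detected on 8 arrays showed. The group means were 10.79 ± 0.11 (SD, n = 4) and 10.01 ± 0.21 (SD, n = 4), with a difference of -0.79 on the log2 scale (standard error 0.11, limma adjusted p = 0.0619). Among the probes detected on 8 arrays, 0.962% had a lower log2 fold change. Division by the array median gave -0.71 (limma adjusted p = 0.132), no normalization an adjusted p of 0.125 and limma-trend 0.165. Leaving out mock replicate 1, mock replicate 3, mock replicate 4, Bcl11b replicate 1 or Bcl11b replicate 3 gave adjusted p-values of 0.148 to 0.200, so the call was lost in each case, with the direction kept.

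Cxcl12, the ligand of Cxcr4, was called lower on its brightest probe, and its other detected probes passed neither rule in the reported fit. On the probe ILMN_2658908 the log2 signals were 11.79, 11.71, 11.99 and 11.89 on mock replicates 1 to 4 and 11.23, 11.34, 11.24 and 11.25 on Bcl11b replicates 1 to 4. The groups did not overlap, as for 7.38% of the probes detected on 8 arrays in this direction. The Bcl11b arrays spread less (SD 0.047, n = 4) than the mock arrays (SD 0.12, n = 4). The difference on the log2 scale was -0.58 (standard error 0.063, limma adjusted p = 0.0295), a fall of 33.0%. Division by the array median gave -0.45 (limma adjusted p = 0.256), and the adjusted p was 0.125 without normalization, 0.136 under limma-trend and 0.108 or 0.103 without Bcl11b replicate 1 or 3.

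The probe ILMN_2737302 had log2 signals of 8.12, 8.13, 8.62 and 7.90 on mock and of 7.87, 7.91, 7.94 and 7.88 on Bcl11b replicates 1 to 4. Its groups overlapped, with a log2 fold change of -0.29 and a 95% interval from -0.65 to 0.063 (adjusted p = 0.601 from limma). The third detected probe, ILMN_3158250, had log2 signals of 7.52, 7.87, 7.89 and 7.35 on mock and of 7.52, 7.49, 7.93 and 7.47 on Bcl11b arrays. Its log2 fold change was -0.051 with an interval from -0.45 to 0.35 (adjusted p = 1 from limma). The deposited table does not say which transcript each probe reads. Whether the 3 probes changed unequally was examined with their signal ratio on each array, which does not depend on scaling between arrays. ILMN_3158250 over ILMN_2658908 lay between 0.049 and 0.0791 on mock arrays and between 0.0646 and 0.0935 on Bcl11b arrays. The exact two-sided permutation test over arrays gave p = 0.114 for this pair, 0.229 for ILMN_2737302 over ILMN_2658908 and 0.143 for ILMN_3158250 over ILMN_2737302, so unequal change was not established. The remaining Cxcl12 probes, ILMN_3078973 and ILMN_2746295, had signals below 0 on all arrays, from -42.0 to -7.38.

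Cx3cl1, the membrane-bound chemokine read by microglia through Cx3cr1, fell by the second rule only in the reported fit. Its log2 signals (ILMN_2627041) were 10.41, 10.27, 10.82 and 10.65 on mock replicates and 9.86, 9.79, 9.78 and 10.41 on Bcl11b replicates 1 to 4. Bcl11b replicates 1 to 3 lay below every mock array, and Bcl11b replicate 4 lay within the mock range. The log2 fold change was -0.58 (standard error 0.19), with a limma p-value over all probes of 0.021 before and 0.358 after adjustment. Without Bcl11b replicate 4 it was -0.73 (adjusted p = 0.149 from limma). With arrayWeights it was -0.72 and the probe passed the adjusted threshold (limma adjusted p = 0.0929). Cx3cl1 did not pass the second rule once mock replicate 3 or 4, or any of Bcl11b replicates 1 to 3, was removed (unadjusted limma p-values of 0.0527 to 0.0553).

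**Figure D2:**
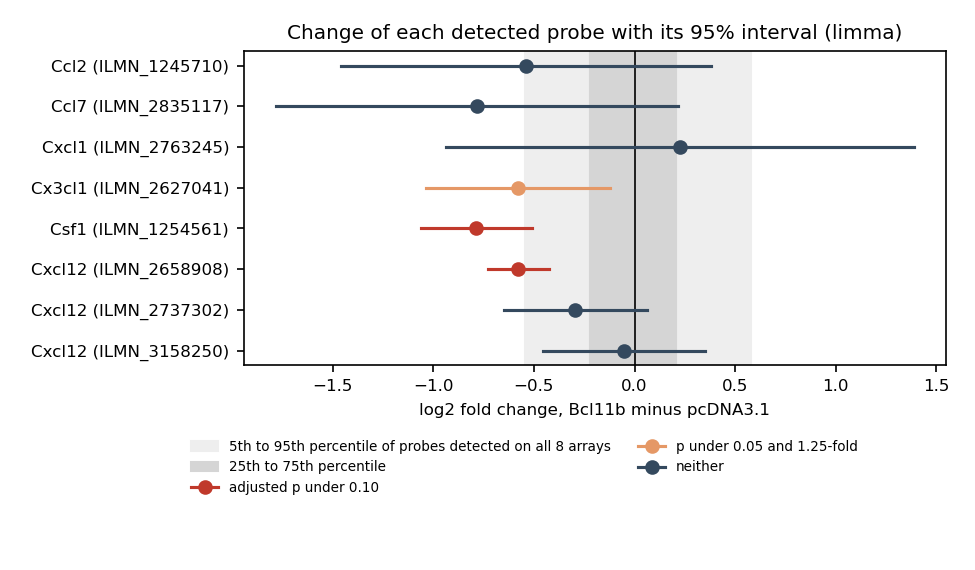
Log2 fold change (Bcl11b minus pcDNA3.1, horizontal axis) of each detected probe with its 95% interval from limma, over grey bands for the 5th to 95th and 25th to 75th percentiles of all probes detected on 8 arrays, in red where the adjusted threshold was passed and in orange where only the second rule was. Csf1 and Cxcl12 (ILMN_2658908) lie at -0.79 and -0.58 with narrow intervals, and the intervals of Ccl2, Ccl7 and Cxcl1 include 0.

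The inflammatory chemokines Ccl2, Ccl7 and Cxcl1 ranged more widely within each group than their group means differed, and none passed either rule in the reported fit. Ccl2 (ILMN_1245710), which attracts monocytes, had log2 signals of 8.18, 7.50, 7.88 and 7.31 on mock and of 7.61, 7.59, 7.33 and 6.17 on Bcl11b replicates 1 to 4. Its log2 fold change was -0.54 with a 95% interval from -1.46 to 0.38 (adjusted p = 0.758 from limma). Ccl7 (ILMN_2835117), its neighbour in the CC class, had log2 signals of 10.72, 9.75, 10.44 and 9.68 on mock and of 9.74, 9.71, 9.66 and 8.33 on Bcl11b arrays. Its groups overlapped by a narrow margin, since only mock replicate 4 and mock replicate 2 came near the Bcl11b arrays. The log2 fold change was -0.78 with an interval from -1.78 to 0.22 (adjusted p = 0.631 from limma). Cxcl1 (ILMN_2763245), which attracts neutrophils, had log2 signals of 8.72, 7.11, 8.47 and 7.57 on mock and of 8.49, 8.49, 8.59 and 7.23 on Bcl11b arrays. Its groups overlapped almost fully, and its log2 fold change was 0.23 with an interval from -0.94 to 1.39 (adjusted p = 1 from limma), but -0.51 without normalization between arrays and -0.061 without mock replicate 2. Bcl11b replicate 4 weighed on all 3 genes, and without it the log2 fold changes were -0.21 for Ccl2, -0.44 for Ccl7 and 0.55 for Cxcl1 (adjusted p-values from limma of 0.849, 0.679 and 0.739).

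The deviations of these 3 chemokines from their group means moved together from array to array. Mock replicates 1 and 3 and Bcl11b replicates 1 to 3 lay above their group means for Ccl2, Ccl7 and Cxcl1, and mock replicates 2 and 4 and Bcl11b replicate 4 lay below for all 3. On Bcl11b replicate 4 the deviations were -1.01 for Ccl2, -1.03 for Ccl7 and -0.97 for Cxcl1, against 0.45 for Cx3cl1, -0.24 for Csf1 and -0.012 for Cxcl12 (ILMN_2658908). Over the 8 arrays the deviations of Ccl2 and Ccl7 had a Pearson correlation of 0.98 (Spearman 0.98), those of Ccl7 and Cxcl1 of 0.95 (Spearman 0.76) and those of Ccl2 and Cxcl1 of 0.88 (Spearman 0.79), while Ccl7 and Cxcl12 (ILMN_2658908) had 0.19 (Spearman -0.26). Over the 4 mock arrays alone the Pearson correlations were 0.98, 0.95 and 0.88 in the same order. The deviations of Csf1 moved with them to a lesser degree, with Pearson correlations of 0.74 with Ccl2, 0.75 with Ccl7 and 0.77 with Cxcl1 (Spearman 0.64, 0.67 and 0.69). These values are descriptions, since the probes share arrays. The arrays shared such deviations over the whole set of detected probes as well, with a correlation of 0.56 between mock replicate 2 and Bcl11b replicate 4 and of 0.70 between mock replicate 4 and Bcl11b replicate 4. The part of this shared variation in the chemokine values was not tested.

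**Figure D3:**
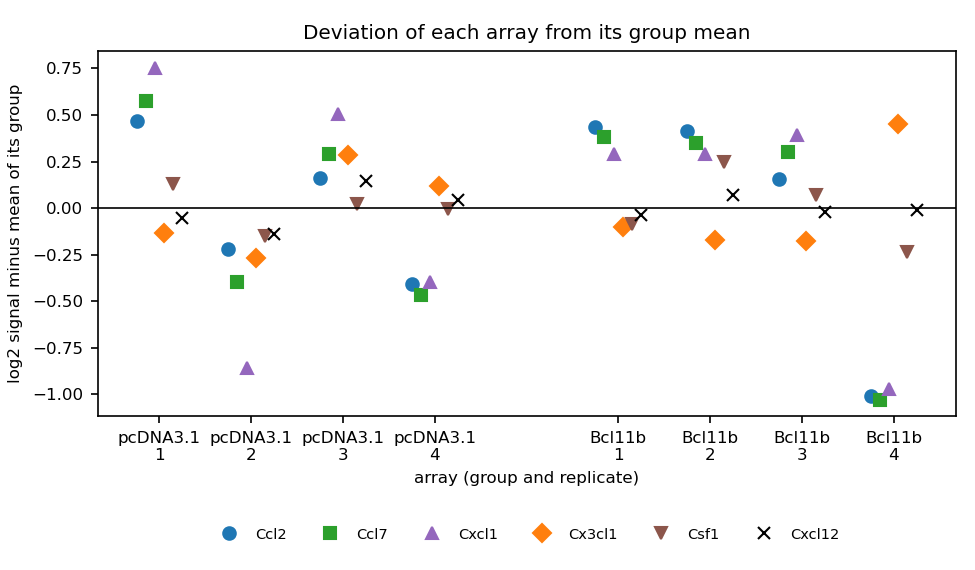
Deviation of each array from the mean of its group (log2, vertical axis) for 6 detected genes, with the bright probe standing for Cxcl12, and points of 1 array side by side. Ccl2, Ccl7 and Cxcl1 lie together above or below 0 on every array, near -1 on Bcl11b replicate 4, where Cx3cl1 lies at 0.45.

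Since the signal ratio of a pair of probes on the same array removes what is common to both, the ratio was taken for all 28 pairs of detected probes from the deposited signals. Ccl7 over Cxcl1 was 4.15, 5.68, 4.03 and 4.02 on mock replicates 1 to 4 and 2.47, 2.39, 2.12 and 2.10 on Bcl11b replicates 1 to 4. The groups did not overlap, and Bcl11b replicate 4, low for both genes, had the same ratio as its group. Ccl2 over Cxcl1 was 0.678, 1.28, 0.659 and 0.832 on mock and 0.525, 0.526, 0.419 and 0.471 on Bcl11b arrays, again without overlap. The log2 ratio was lower in Bcl11b-transfected cells by a difference of -0.96 for Ccl7 over Cxcl1 and of -0.78 for Ccl2 over Cxcl1. Both pairs had p = 0.0286 in the exact two-sided permutation test over arrays, the smallest value that 70 splits of 8 arrays allow, and 0.4 after Benjamini-Hochberg adjustment over the 28 pairs. With so few splits, a pair could not pass that adjustment unless many pairs reached the smallest value. Only these 2 pairs reached it. They share Cxcl1, and Ccl2 and Ccl7 deviated together, so the 2 are not separate results. How often pairs among all detected probes separate in this way was not counted. Ccl2 over Ccl7 overlapped between the groups, from 0.163 to 0.226 on mock and from 0.198 to 0.224 on Bcl11b arrays (exact p = 0.286).

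**Figure D4:**
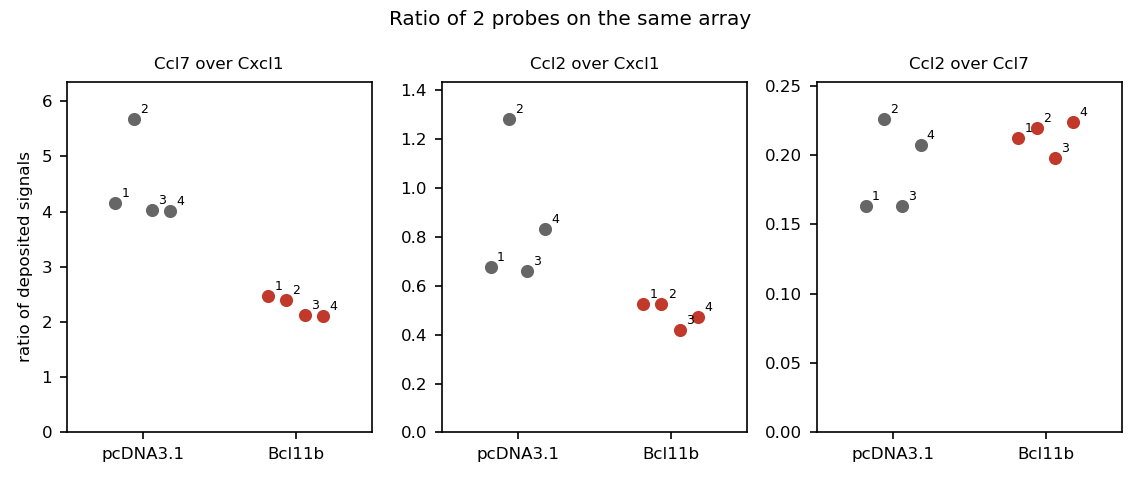
Ratio of the deposited signals of a pair of probes on each array (linear vertical axis from 0), grey for mock and red for Bcl11b, with replicate numbers. Ccl7 over Cxcl1 is at least 4.02 on mock and at most 2.47 on Bcl11b arrays, and Ccl2 over Ccl7 overlaps between groups.

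The Il6 probe (ILMN_1243601) gave signals within the background of all arrays that were nevertheless higher on every Bcl11b array. Deposited signals were -22.3, -9.24, -1.64 and 0.484 on mock and 33.0, 23.0, 13.0 and 14.8 on Bcl11b replicates 1 to 4. The detection p-values ran from 0.372 to 0.642 on mock and from 0.0576 to 0.168 on Bcl11b arrays, none of them under 0.01. At a limma adjusted p of 0.00296 the probe passed, but all mock signals were set to the floor before the log, so the p depends on that choice and no fold change is given. It was 0.0448 with an offset of 16 in place of the floor and 0.0888 with neqc. Of the 13942 probes detected on no array, 0.258% were called higher at this threshold and 1.28% were higher without overlap, as were 2.05% of all probes. Lif had no detected probe, and of its 3 probes ILMN_3137291 came nearest, with detection p-values of 0.0915 to 0.393 on mock and 0.0276 to 0.167 on Bcl11b arrays. Its groups overlapped, as did those of the other Lif probes (limma, adjusted p = 0.802 for ILMN_3137291). Cxcl5, a neutrophil chemokine close to Cxcl1, had signals from -28.8 to -10.1 on all 8 arrays.

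**Figure D5:**
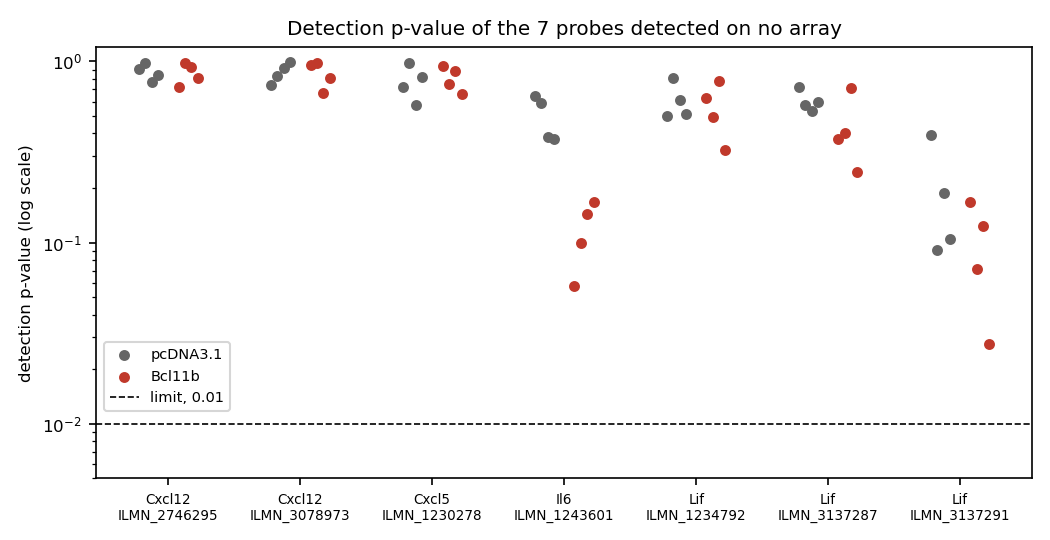
Detection p-value (log axis) of the 7 probes detected on no array, grey for mock and red for Bcl11b, with the limit of 0.01 as a dashed line. The Il6 probe lies between 0.0576 and 0.168 on Bcl11b arrays and between 0.372 and 0.642 on mock arrays, and no point lies below the limit.

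Receptors for these ligands were mostly undetected. Of 17 receptor genes, all matched to a probe, 4 were detected, and Ccr1, Ccr2, Ccr3, Cxcr4, Cx3cr1, Lifr and Csf1r were among the 13 that were not. Il6st, the shared signalling subunit for Il6 and Lif, had mean log2 signals of 8.25 ± 0.095 (SD, n = 4) on mock arrays and 8.24 ± 0.12 (SD, n = 4) on Bcl11b arrays, with a log2 fold change of -0.0067. Osmr, the receptor subunit that pairs with Il6st for oncostatin M, fell by the second rule. Its log2 signals were 8.30, 8.22, 8.19 and 8.19 on mock and 7.61, 7.77, 7.40 and 7.86 on Bcl11b arrays. These groups did not overlap (log2 fold change -0.57 with a standard error of 0.10, limma adjusted p = 0.106). Of the probes detected on 8 arrays, 7.38% were lower without overlap. Ccrl2 was detected on 2 mock arrays and Il6ra on 1 Bcl11b array. Of 6 proteases that release or cut these ligands, 3 were detected, Adam17, Mmp2 and Mmp14, and none passed either rule (log2 fold changes of 0.0085, -0.33 and -0.30, median -0.30).

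Of 41 other chemokine and cytokine genes, 11 were detected. For comparison, 1157 of the 10622 probes detected on at least 4 arrays fell and 579 rose by the second rule, fitted alone. Of the 8 list genes among those probes, 2 fell and 2 rose by it. In the reported fit, 1 of the 11 was called higher at the adjusted threshold, and 1 higher and 2 lower by the second rule. The rise was in Cxcl10, a chemokine induced by interferon, whose log2 signals were 6.66, 5.81, 5.44 and 5.15 on mock and 8.26, 7.96, 8.40 and 8.25 on Bcl11b arrays. It was detected on 1 mock and 4 Bcl11b arrays, and with the undetected mock signals raised to the dimmest detected signal of their array it was at least 3.68-fold higher (limma adjusted p = 0.055). The adjusted call was lost without mock replicate 3 or 4 or any 1 Bcl11b array, without normalization and under limma-trend. The falls were in Ctf1, a cytokine of the Il6 family (-0.76 on the log2 scale, limma adjusted p = 0.398), and Il7, detected on 3 mock and no Bcl11b arrays and at least 1.09-fold lower (adjusted p = 0.249 from limma), and 1 to 3 genes passed as lower, and 1 to 3 as higher, with 1 array left out. Under division by the array median and under neqc 3 passed as higher. Ccl5, another inducible CC chemokine, had log2 signals of 9.69, 7.92, 8.71 and 7.70 on mock and 10.79, 10.76, 10.78 and 8.43 on Bcl11b arrays, with mock replicates 2 and 4 and Bcl11b replicate 4 again the lowest of their groups, and its log2 fold change of 1.68 did not pass (adjusted p = 0.493 from limma), though under division by the array median it passed the second rule, at 1.74. The cytokine Cntf and the chemokine Ccl25 had log2 fold changes of 0.17 and -0.053, with 0.25 on the other Ccl25 probe (ILMN_2661722). The median over the 5 genes of the list detected on 8 arrays was 0.16. Among undetected genes of the list, the probes of Cxcl16 and Il15 passed the second rule within the background.

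In the NF-kappaB and Jak-Stat signalling list, 34 of 35 genes were matched and 33 detected, and none passed the adjusted threshold. By the second rule 5 fell and 3 rose. Of the 10622 probes detected on at least 4 arrays, fitted alone, 1157 fell and 579 rose by it. Of the 30 list genes among them, 6 fell and 3 rose. Under division by the array median 3 fell and 4 rose, and with 1 array left out 3 to 11 fell and 0 to 2 rose, the extremes being 11 and 2 without mock replicate 2, 4 and 0 without mock replicate 3 and 3 and 2 without Bcl11b replicate 3. The members higher in Bcl11b-transfected cells were Nfkbia and Tnfaip3, feedback inhibitors of NF-kappaB (log2 fold changes of 0.76 and 0.47), and the NF-kappaB subunit Relb (0.34). The lower members were the kinases Irak4 (-0.81), Tyk2 (-0.83) and Ripk1 (-0.40), the Jak-Stat inhibitor Socs3 (-0.68) and the NF-kappaB regulator Nfkbiz (-0.56), of which Ripk1 and Nfkbiz did not pass under division by the median. Rela, Ptpn11 and Zfp36l1 had log2 fold changes of -0.21, -0.15 and 0.039. Other probes of Ptpn11 had 0.33 (ILMN_1245874, which passed the second rule as higher) and 0.19 (ILMN_2743723). Traf6, at -0.047 on its brightest probe, passed that rule as lower on ILMN_2427560 (-0.48). Zfp36l1 had -0.19 on ILMN_1247853, and the other Tyk2 probes were detected on at most 2 arrays. Under division by the array median, Rela, Ptpn11 and Zfp36l1 lay at 0.014, 0.16 and 0.40, and Zfp36l1 passed as higher. The median log2 fold change of the list over genes detected on 8 arrays was -0.19, beside -0.026 for all such probes.

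Of the fibroblast markers, Pdgfra fell, at a log2 fold change of -0.70 ± 0.043 (standard error, limma adjusted p = 0.00296), and Dcn rose, at 1.47 ± 0.19 (limma adjusted p = 0.0492), the latter not without mock replicate 3 or 4 or any of Bcl11b replicates 1 to 3, nor under limma-trend, and neither passed without normalization. By the second rule Pdgfrb and Col5a1 fell (-0.49 and -0.42), Col5a1 not under division by the array median. Vim and Sparc, strongly detected, had log2 fold changes of -0.24 and -0.086, with 0.25 on the other Sparc probe (ILMN_3059326), and Mtap2, Gja1 and Slc1a3 had 0.21, 0.022 and -0.67, none of them passing. Under division by the array median Vim reversed to 0.54 and Gja1 lay at 0.47, and both passed the second rule as higher. Cd68, detected on 2 Bcl11b and no mock arrays, was at least 1.13-fold higher by the second rule. Over the 8 arrays, the probes with a pattern most like that of Cxcl12 (ILMN_2658908), which had both the smallest p-value and the highest signal of the detected members, were Col6a1, Col16a1 and Dip3b, with Pearson correlations of 0.99, 0.99 and 0.99 (Spearman 0.98, 0.88 and 0.93) out of 9359 probes ranked. Their log2 fold changes were -0.68, -0.79 and -0.86. These correlations describe 8 arrays in 2 groups and carry no test.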

How the data were processed

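RNA from 8 cultures was hybridized to Illumina MouseRef-8 v2 arrays, 1 array each, and the scans were summarized in GenomeStudio. The authors deposited 1 background-subtracted intensity per probe without normalization between arrays. They also deposited a detection p-value per probe and array. Conditions and replicate numbers came from the sample titles. Quantile normalization, limma and the thresholds follow the methods. Normalized intensities were floored at 1, put on the log2 scale and tested with limma 3.58.1 in R 4.3.3 (lmFit and eBayes, no covariate), the floor and model being choices made here, over all 25697 probes, with Benjamini-Hochberg adjustment. No array held a signal identical to that of another array for any probe.

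The members and gene lists were chosen with earlier results of these data known. All member probes are named. From each list the genes passing either rule and the 3 with the highest signal are named, each by its brightest detected probe. A gene undetected in 1 group gets a bound against the dimmest detected signals. Older symbols were matched through RefSeq. Fn1, Rbfox3 and Cebpd were not matched. Alternatives were other scalings, neqc, an offset of 16, a detection filter, limma-trend, arrayWeights, the replicate number as a block, and each array left out. Real-time PCR and ChIP-seq were not analysed here.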

Additional observations from a re-analysis of the deposited data

Results flagged for a closer look

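Of 16 groups of 4 arrays, 2 for each of the 8 detected probes, 4 had an array far from the others, where chance flags about 1 group in 20. The groups come from the same 8 arrays and several probes moved together, so that rate cannot be set against the count of 4. Bcl11b replicate 4 stood apart for Ccl7 (log2 signal 8.33, nearest other array 9.66), for Cxcl1 (7.23, nearest 8.49) and, upward, for Cx3cl1 (10.41, nearest 9.86). Bcl11b replicate 3 stood apart for the Cxcl12 probe ILMN_3158250 (7.93, nearest 7.52).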

How the results depend on the processing

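The number of all probes called at the adjusted threshold, 252, was 57 without normalization between arrays, 146 with each array divided by its median, 413 with neqc, 45 with the replicate number as a block, 45 under limma-trend, 642 with arrayWeights and between 87 and 637 with 1 array left out. Of the 15 chemokine and cytokine probes, 3 were called in the reported fit. The count was 1 without normalization, 1 with division by the median, 0 with the replicate block and 1 under limma-trend. It was 4 with arrayWeights, where Cx3cl1 was added, and between 1 and 3 with 1 array left out. By the second rule it was 8 without normalization, where 22 signalling genes were lower and 0 higher. The median log2 fold change there was -0.49 over all probes and -0.68 over probes detected on 8 arrays. Relative to the median of all probes, Csf1, Cxcl12 (ILMN_2658908) and Cxcl1 lay at -0.98, -0.71 and -0.016. Relative to the median of probes detected on 8 arrays they lay at -0.78, -0.51 and 0.18. Cxcl1 was at -0.51 there before either median was taken off, and ran from -0.061 to 0.55 with 1 array left out. The Cxcl12 probe ILMN_3158250 ran from -0.16 to 0.027 with 1 array left out. The causes were not tested. Ccl2, Ccl7, Cx3cl1, Csf1 and Cxcl12 (ILMN_2658908) kept their direction under all alternatives run. Same-numbered arrays did not deviate together throughout (correlations of 0.68, -0.63, 0.18 and 0.70 for replicates 1 to 4), and not every array correlated best with its own number. With the block, the limma adjusted p was 0.272 for Csf1, 0.212 for Cxcl12 and 0.106 for Il6, and the adjusted calls of Cxcl10 and Dcn were lost. In that setting 1 of the other ligands was called lower at the adjusted threshold. By the second rule 3 of the other ligands passed as lower and 3 as higher, and Ccl7 passed as lower, at a limma adjusted p of 0.457. Signal over background limits Il6, Lif and Cxcl5, and 9 rather than 8 probes were detected at a limit of 0.05.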
